A study of Mus musculus with 2 samples.

Results

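Histidine decarboxylase (Hdc) and 9 genes of basophils, mast cells and eosinophils were followed in whole spleen RNA of 2 groups of mice. The 10 genes were chosen by symbol, with their values in these libraries already known, out of 22216 gene rows in the deposited table. The groups carried the genotypes NOD.g7 and NOD.L7, both on the non-obese diabetic (NOD) background by name, an inbred strain that develops autoimmune diabetes. Each group was 1 RNA sequencing library made from the pooled spleens of 3 mice, so there were no replicates and every difference is between these 2 libraries. The sources used here do not give the meaning of g7 and L7, the age and sex of the mice, or any treatment. The column names of the table are NOD and NOD.LC7, and NOD.LC7 was read as NOD.L7. Levels are in RPKM, which scale reads by gene length and by library size, and rested on 9.13 Gb of mapped sequence in NOD.g7 and 12.1 Gb in NOD.L7.

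Basophils, mast cells and eosinophils are granule-bearing cells of allergic and antiparasitic responses, and all are rare in a resting spleen. Basophils and mast cells carry the high-affinity receptor for IgE, whose crosslinking by antigen releases stored granules. Those granules hold histamine, which Hdc makes from the amino acid histidine, and proteases that differ between the cell types. Eosinophils depend on interleukin-5 and store toxic cationic proteins. Hdc is also transcribed outside these cells, for example in neutrophils and other myeloid cells.

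Of the 10 genes, Hdc showed the widest gap between the libraries, 5.08-fold higher in NOD.L7. The IgE receptor genes Fcer1a and Ms4a2 and the protease gene Cpa3 were between 2.01-fold and 4.55-fold higher there, at much lower levels. The basophil protease gene Mcpt8 and the eosinophil granule gene Prg2 were within 1.29-fold. The mast cell chymase gene Cma1 and the eosinophil genes Ear1 and Il5ra were lower in NOD.L7.

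The promoters of the 4 genes that were over 2-fold higher and of Cma1, the gene furthest below, are shown first, because Gata2, a regulator of basophils and mast cells, is itself among the 10 genes. They run from 250 bases before to 50 bases after the start site, 5′ to 3′ on the gene's strand, as given by RefSeq on build GRCm38.p6. Capitals mark GATAA, a form of the sequence that GATA factors bind, or its complement TTATC. The entries lie at chr2:126618629-126618928 for Hdc, chr1:173227180-173227479 for Fcer1a, chr19:11623670-11623969 for Ms4a2, chr3:20242132-20242431 for Cpa3 and chr14:55944626-55944925 for Cma1, all on the minus strand.
Hdc: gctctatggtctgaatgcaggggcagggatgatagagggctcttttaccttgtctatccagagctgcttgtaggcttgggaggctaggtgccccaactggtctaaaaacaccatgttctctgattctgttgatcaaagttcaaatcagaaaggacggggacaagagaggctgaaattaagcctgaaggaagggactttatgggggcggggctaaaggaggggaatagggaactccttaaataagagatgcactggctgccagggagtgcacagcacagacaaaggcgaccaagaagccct
Fcer1a: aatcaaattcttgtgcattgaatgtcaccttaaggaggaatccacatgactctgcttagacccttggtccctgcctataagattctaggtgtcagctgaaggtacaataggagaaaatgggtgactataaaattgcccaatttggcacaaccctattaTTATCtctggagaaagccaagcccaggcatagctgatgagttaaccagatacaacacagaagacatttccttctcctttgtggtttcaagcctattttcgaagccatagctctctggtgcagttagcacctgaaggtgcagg
Ms4a2: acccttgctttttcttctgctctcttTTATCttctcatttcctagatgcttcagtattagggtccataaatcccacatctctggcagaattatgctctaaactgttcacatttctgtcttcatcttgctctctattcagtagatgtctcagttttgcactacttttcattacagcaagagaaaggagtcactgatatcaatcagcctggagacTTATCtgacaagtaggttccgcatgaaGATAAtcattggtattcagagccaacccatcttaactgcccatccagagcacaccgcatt
Cpa3: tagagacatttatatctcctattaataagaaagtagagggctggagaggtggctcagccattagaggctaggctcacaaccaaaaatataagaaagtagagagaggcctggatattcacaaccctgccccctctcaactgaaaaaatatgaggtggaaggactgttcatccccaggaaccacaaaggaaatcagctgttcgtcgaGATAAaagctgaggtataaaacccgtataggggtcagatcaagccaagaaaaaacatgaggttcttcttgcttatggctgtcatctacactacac
Cma1: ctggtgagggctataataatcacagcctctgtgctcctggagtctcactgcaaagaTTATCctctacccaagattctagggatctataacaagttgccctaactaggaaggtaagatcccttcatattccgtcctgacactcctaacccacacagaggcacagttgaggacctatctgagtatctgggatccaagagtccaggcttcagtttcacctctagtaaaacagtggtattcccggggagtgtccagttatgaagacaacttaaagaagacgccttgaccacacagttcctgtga

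The Hdc window held no GATAA on either strand. Other forms such as GATAG, which the Hdc window does hold, were not searched for or marked. That of Ms4a2 held 3, with first bases at positions -224, -37 and -10 from the start site. Cpa3 held 1 at -45, Fcer1a 1 at -92 and Cma1 1 at -194. Of the 9 genes with a RefSeq promoter entry, 6 had a GATAA in the window of the first entry, the others being Il5ra (-73) and Ear1 (4), while Hdc, Mcpt8 and Gata2 had none. Over all 32851 promoter entries of this length, 25.4% held the motif on either strand. A match of letters describes the window and was not tested as a binding site.

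Hdc (chromosome 2, 126419404 to 126444401, in mm9) was at an RPKM of 5.20 in NOD.g7 against 26.4 in NOD.L7. The NOD.L7 library was the higher by a fold of 5.08, with a 95% counting interval of 4.65 to 5.55 from about 568 and 3818 fragments. Such intervals cover counting error alone and leave out the variation between mice. On the scale log2(RPKM + 1), where changes of low genes come out too small, the difference was 2.14, which ranked 2 from the top among the 11141 genes with an RPKM of 1 or more in either library. Among those genes Hdc moved from percentile 27.0 of levels in NOD.g7 to percentile 75.8 in NOD.L7. Hdc was also the 1 gene of the 10 that passed the size rule used in place of a test, an absolute log2 ratio of at least 1, which 0.709% of the 11141 genes passed. All 10 genes had an RPKM of 1 or more in either library, Fcer1a and Ms4a2 through NOD.L7 alone, where they were higher.

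**Figure D1:**
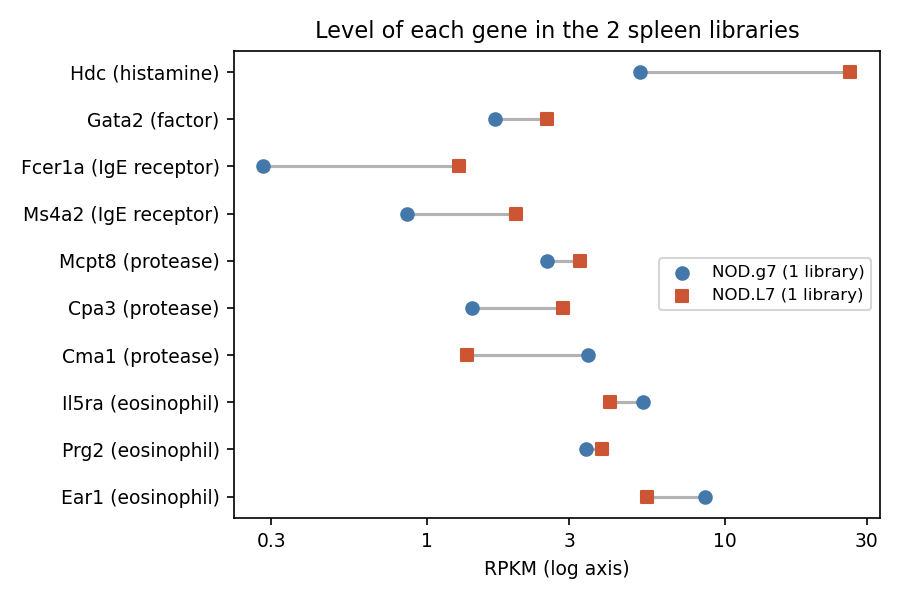
RPKM of each of the 10 genes (log horizontal axis) in the NOD.g7 library (blue circles) and the NOD.L7 library (orange squares), joined by a line per gene. Hdc goes from 5.20 to 26.4, while Cma1, Il5ra and Ear1 have the square to the left of the circle.

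Other genes of the histamine pathway gave no such gap. Slc18a2, the transporter that loads monoamines such as histamine into vesicles, was at 0.934 in NOD.g7 against 1.42 in NOD.L7, and the histamine-inactivating methyltransferase gene Hnmt at 0.446 and 0.464. Hrh2, the histamine receptor best expressed of those measured, went the other way, at 3.14 and 1.82. The receptor genes Hrh1 (0.461 and 0.647) and Hrh4 (0.214 and 0.327) stayed under an RPKM of 1, and Hrh3 was listed at 0 in both. Of all 9 pathway genes 6 were higher in NOD.L7 and 2 lower, with a median log2 ratio of 0.13 and Hdc alone past the size rule. Over all 22216 rows with no filter, 42.2% were higher in NOD.L7, 34.6% lower and the rest equal, mostly at 0 in both libraries. Of the 3 pathway genes that reached an RPKM of 1, Slc18a2 did so through NOD.L7 alone, and their median of 0.32 was its value.

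Nor did the genes of other decarboxylases and related proteins. Odc1, the ornithine decarboxylase of polyamine synthesis, was at 27.2 and 29.0, Csad at 5.59 and 4.91, and Gad1, which makes the transmitter GABA, at 4.53 and 3.58. Sgpl1 (32.2 and 30.2) and Azin1 (21.2 and 21.6), also on that list, do not encode decarboxylases. Of the 6 genes of that list with an RPKM of at least 1, Hdc itself included, 3 were higher and 3 lower. The shares over all 11141 genes were 56.2% and 43.8%. The median log2 ratio of the 6 was -0.03, and Hdc alone passed the size rule. The genes on either side of Hdc on chromosome 2 that were well above 0 were also close between libraries. Gabpb1, a subunit of an ETS-family factor, was at 16.5 and 14.8, the ubiquitin protease gene Usp8 at 26.8 and 27.6, and the flippase gene Atp8b4 at 7.55 and 7.45. Slc27a2, the nearest gene on the other side, was near 0 at 0.0381 and 0.119, a ratio of 3.11 from values too low to compare.

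**Figure D2:**
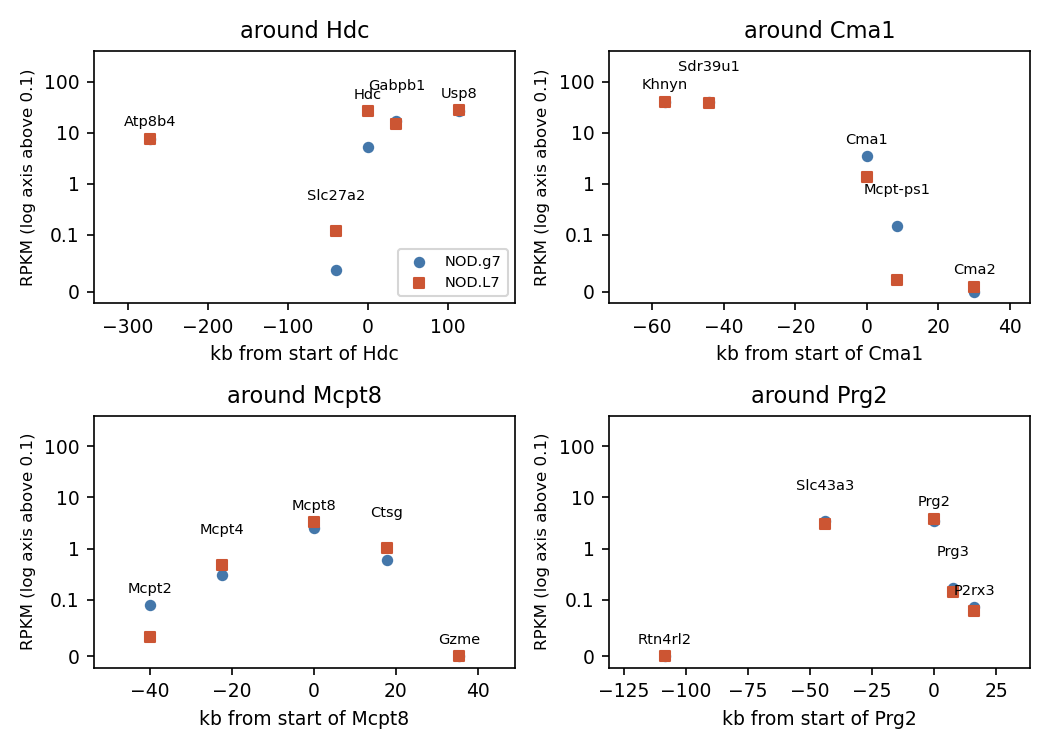
RPKM (log axis above 0.1, linear below) of Hdc, Cma1, Mcpt8 and Prg2 and of up to 2 gene rows on each side, against distance in kb from the start of the central gene, in NOD.g7 (blue circles) and NOD.L7 (orange squares). Around Hdc, the circle and square of Atp8b4, Gabpb1 and Usp8 nearly coincide while those of Hdc are apart.

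The IgE receptor consists of an alpha chain that binds IgE, a beta chain that amplifies the signal and a shared gamma chain. Fcer1a (chromosome 1, 175151402 to 175157360), the alpha chain, was at 0.282 in NOD.g7 against 1.28 in NOD.L7. That fold of 4.55 rested on about 13 fragments in NOD.g7 against 77 in NOD.L7, and its counting interval was wide, at 2.47 to 8.78. Ms4a2 (chromosome 19, 11691683 to 11698133), the beta chain, was at 0.856 and 1.99, a fold of 2.32 (counting interval 1.62 to 3.45). Both chains were higher in NOD.L7, and with the pseudocount of 1 their log2 ratios were 0.83 and 0.69, under the size rule. The gamma chain gene Fcer1g, which many myeloid and NK cells share, was at 67.9 and 73.2.

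Genes that act just below the receptor had similar levels in the libraries, apart from Gab2. The kinase gene Lyn was at 98.6 and 113, Fyn at 63.8 and 70.1, and the adaptor gene Lat, which T cells also use, at 131 and 169. Gab2, an adaptor of the IgE receptor pathway, was at 1.60 and 3.51, a fold of 2.20 (counting interval 1.97 to 2.45). All 14 genes of the IgE receptor list had an RPKM of at least 1, of which 11 were higher in NOD.L7, none passed the size rule and the median log2 ratio was 0.17. Fcer1a and Ms4a2 reached that RPKM through NOD.L7 alone and could have counted only as higher. Over all 11141 genes, 56.2% were higher in NOD.L7.

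Gata2 (chromosome 6, 88148658 to 88157026) encodes a transcription factor needed for basophils, mast cells and blood progenitors. Its RPKM was 1.69 in NOD.g7 against 2.53 in NOD.L7, or 1.50-fold higher (counting interval 1.29 to 1.74). Its relative Gata1, shared by the erythroid, megakaryocyte, mast cell and eosinophil lineages, was at 3.05 and 2.72, and the erythroid partner gene Tal1 at 2.70 and 1.47. Cebpa, a factor of granulocyte and monocyte precursors, was at 3.13 and 4.89. Of the 15 lineage factors 8 were higher in NOD.L7 and 7 lower, with none past the size rule and a median log2 ratio of 0.01. The shares over all 22216 rows with no filter were 42.2% higher and 34.6% lower. Erythroid markers moved in the direction of Tal1: all 12 measured were lower in NOD.L7, against 43.8% of all 11141 genes. Of the 12, 3 (Ank1, Spna1 and Trim10) reached an RPKM of 1 through NOD.g7 alone and could have counted only as lower. The erythroid markers had a summed RPKM of 171 and 77.8, with none at 0. Their part in the values of these factors was not tested.

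The 3 protease genes did not move together. Cpa3 (chromosome 3, 20115515 to 20142080), the carboxypeptidase A of mast cells and basophils, was at 1.42 in NOD.g7 against 2.85 in NOD.L7, a fold of 2.01 (counting interval 1.58 to 2.57). Mcpt8 (chromosome 14, 56701000 to 56704034), a serine protease used as a basophil marker in mice, was at 2.53 and 3.26. The fold of Mcpt8 was 1.29, and its counting interval ran from just above 1 to 1.69. Cma1 (chromosome 14, 56560288 to 56563498), a mast cell chymase, went the other way at 3.48 and 1.36. It was 2.56-fold lower in NOD.L7 (counting interval 1.98 to 3.37), and its log2 ratio of -0.92 fell just short of the size rule and ranked 43 from the bottom of 11141.

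**Figure D3:**
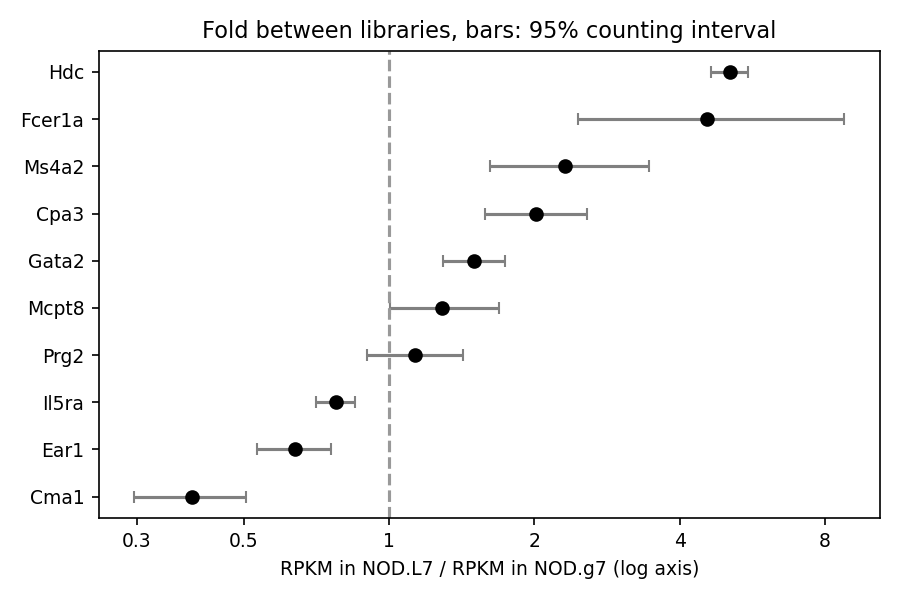
Plain ratio of RPKM in NOD.L7 to RPKM in NOD.g7 for each of the 10 genes (points, log axis), with the 95% counting interval as bars and a dashed line at a ratio of 1. Hdc and Fcer1a are furthest right at 5.08 and 4.55, the interval of Fcer1a being the widest, and Cma1 is furthest left at 0.391.

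Cma1 and Mcpt8 lie in 1 cluster of mast cell protease and granzyme genes, which spans 321 kb of chromosome 14 (56560288 to 56881097) with 15 listed genes. Of these, 4 reached an RPKM of 1, Ctsg through NOD.L7 alone. Besides Cma1 and Mcpt8 they were Gzmb, the granzyme B of cytotoxic lymphocytes, at 3.74 and 4.2, and Ctsg, the cathepsin G of neutrophil precursors, at 0.596 and 1.02. Cma1 was thus the 1 of the 4 that was lower in NOD.L7, against 43.8% of all 11141 genes, and Ctsg could have counted only as higher. Of all 15 listed cluster genes 6 were higher, 3 lower (Cma1, Mcpt1 and Mcpt2) and 6 at 0 in both libraries. With no filter, 42.2% of all 22216 rows were higher and 34.6% lower. The genes beyond the cluster next to Cma1, Sdr39u1 and Khnyn, were at 40.0 and 38.7 and at 40.6 and 38.9.

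The other mast cell proteases were near the floor. Mcpt4, a chymase of connective tissue mast cells, was at 0.310 and 0.476, and the mucosal mast cell protease genes Mcpt1 and Mcpt2 were at 0.341 and 0.255 and at 0.0903 and 0.0341. The tryptase gene Tpsb2 was at 0.101 and 0.259, Mcpt9 and the mast cell receptor gene Mrgprb2 were listed at 0 in both libraries, and Tpsab1 was listed at 0 in NOD.g7. Kit, the stem cell factor receptor of mast cells and progenitors, was at 5.02 and 7.16. The level of Cma1 in NOD.g7 was therefore not matched by the defining tryptases of mast cells. Of the 14 mast cell list genes outside the 10 described here, 9 were higher in NOD.L7, 2 lower and 3 at 0 in both. The 14 had a median log2 ratio of 0.03, with none past the size rule. With no filter, 42.2% of all 22216 rows were higher and 34.6% lower.

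Of the 12 basophil list genes outside the 10, 10 were higher in NOD.L7 and 2 lower, against 42.2% and 34.6% of all 22216 rows. The 12 genes had a median log2 ratio of 0.13, with none past the size rule. The 7 that reached an RPKM of 1 were among the higher ones, with a median of 0.31, but 2 of them, Il1rl1 and Slc18a2, did so through NOD.L7 alone and could have passed only as higher. Prss34, a protease of basophils and some mast cells, was at 2.67 in NOD.g7 against 2.93 in NOD.L7, a fold of 1.10 whose counting interval of 0.890 to 1.37 included 1. Il3ra, the receptor chain for interleukin-3, was at 3.77 and 4.24, while the shared beta chain gene Csf2rb, which other myeloid cells use too, was at 15.6 and 24.0. Cyp11a1, a steroid-making enzyme, was at 1.51 and 2.56, and Il1rl1, the receptor for interleukin-33, at 0.905 and 1.37. The cytokine genes Il4 (0.176 and 0.15) and Il13 (listed at 0 in NOD.g7 and at 0.0137 in NOD.L7) were near or at the floor.

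**Figure D4:**
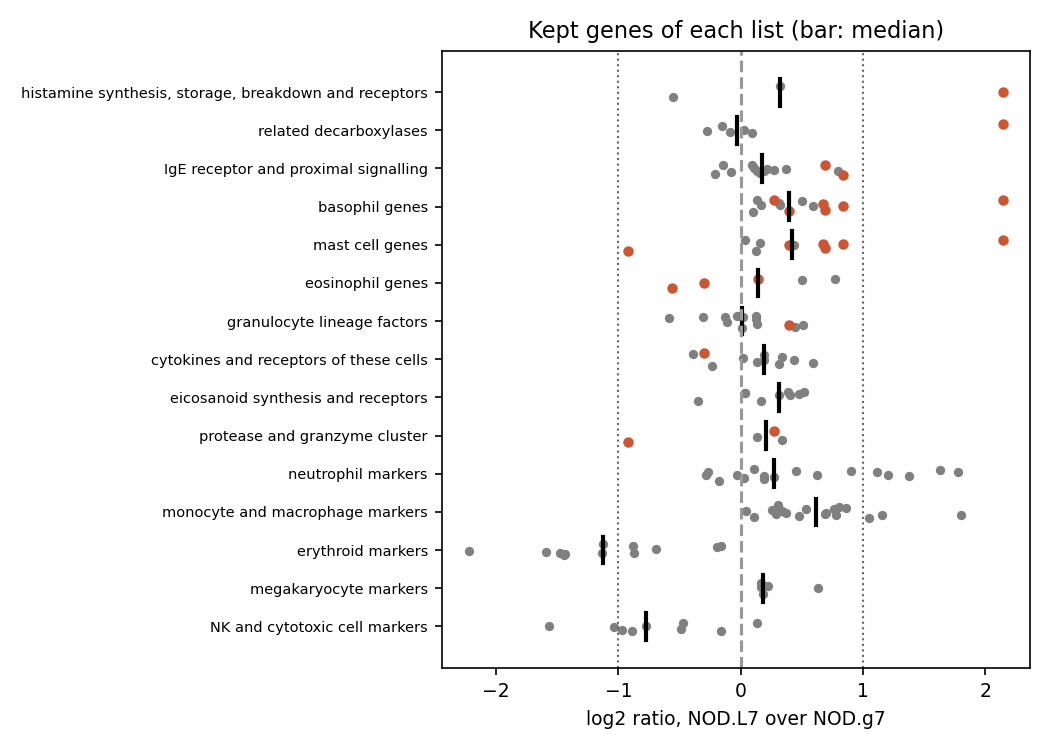
Log2 ratio of NOD.L7 over NOD.g7, on the log2(RPKM + 1) scale, of every listed gene with an RPKM of 1 or more in either library (points, with vertical scatter for visibility), by list. The 10 genes described here are orange, black bars are medians, and dotted lines mark the size rule. Hdc, at 2.14, lies apart from the rest of each list that holds it.

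The 3 eosinophil genes were level or lower in NOD.L7. Prg2 (chromosome 2, 84820618 to 84823789), the major basic protein of eosinophil granules, was at 3.43 in NOD.g7 against 3.88 in NOD.L7, with a fold whose counting interval ran from 0.901 to 1.42. Il5ra (chromosome 6, 106660373 to 106699031), the specific chain of the interleukin-5 receptor, which some B cells carry as well, was at 5.30 and 4.11, a 1.29-fold lower value (counting interval 1.17 to 1.42). Ear1 (chromosome 14, 44396431 to 44397304), an eosinophil-associated ribonuclease, was 1.57-fold lower at 8.57 and 5.46. The value of Ear1 is uncertain, since 57.4% of the 50-base windows of its transcript also occurred in transcripts of other genes, among them Ear2 and Ear6. The same share was 5.46% for Cma1, 1.05% for Il5ra and 0 for the other 7 genes.

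Ccr3 and Alox15 went the other way. Ccr3, the eotaxin receptor, was at 5.81 and 10.6, a fold of 1.83 (counting interval 1.69 to 1.98), and the lipoxygenase gene Alox15 was at 0.753 and 1.48. Both were higher in NOD.L7, and they were the 2 genes of the eosinophil list outside the 10 that reached an RPKM of 1, Alox15 through NOD.L7 alone. Of the 11 measured genes of that list outside the 10, 6 were higher and 5 lower, against 42.2% and 34.6% of all 22216 rows. The median log2 ratio of the 11 was 0.02. The peroxidase gene Epx, a defining granule gene of eosinophils, was near 0 in both libraries at 0.0235 and 0.0407, and so was Prg3, the neighbour and relative of Prg2, at 0.173 and 0.139. Ear2 was at 0.599 and 0.373. Prg2 was therefore present without Epx or Prg3 at comparable levels.

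Genes of the cytokines of these cells and their receptors went in both directions. Csf2ra, the receptor chain for granulocyte-macrophage colony-stimulating factor, was at 21.1 and 24.3, Crlf2, a receptor chain for the cytokine TSLP, at 17.7 and 20.4, and Il9r lower at 23.7 and 17.8. Of 21 such genes 12 were higher in NOD.L7, 7 lower and 2, Il3 and Il9, listed at 0 in both libraries. With no filter, 42.2% of all 22216 rows were higher and 34.6% lower. The median log2 ratio of these receptor and cytokine genes was 0.02 over all 21 and 0.19 over the 11 that reached an RPKM of 1. Of those 11, 8 were higher, against 56.2% of the 11141 genes. Il1rl1 reached that RPKM through NOD.L7 alone and could have counted only as higher. Among genes of leukotriene and prostaglandin synthesis and their receptors 12 of 14 were higher, with a median of 0.15, and 8 of the 9 that reached an RPKM of 1, with a median of 0.31. They included Alox5ap, the activator of leukotriene synthesis, at 48.5 and 70.0, and Pla2g4a, the phospholipase that frees arachidonic acid, at 3.21 and 4.57. Cysltr2, the 1 of these 9 that was lower, reached an RPKM of 1 through NOD.g7 alone and could have counted only as lower. None of either list passed the size rule.

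Set side by side, the 10 genes changed order between the libraries. In NOD.g7 the highest were Ear1 (8.57), Il5ra (5.30) and Hdc (5.20), and the counting interval of the Hdc level, 4.78 to 5.65, overlapped that of Il5ra, 4.95 to 5.66. Next came Cma1 (3.48) and Prg2 (3.43), whose intervals also overlapped, and Fcer1a was lowest. In NOD.L7 Hdc was first, at an interval of 25.6 to 27.3, and Ear1 followed at 4.78 to 6.20. Cma1 moved from rank 4 of 10 to rank 9, where its interval of 1.09 to 1.67 overlapped that of Fcer1a, 1.01 to 1.60.

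Hdc made up 15.9% of the summed RPKM of the 10 genes in NOD.g7 against 49.7% in NOD.L7, and the sum of the other 9 was 27.5 and 26.7. Without Ear1, the most abundant of the 9 and of uncertain value, that sum was 19.0 and 21.3. Per unit of Mcpt8 RPKM, Hdc was at 2.06 in NOD.g7 against 8.10 in NOD.L7. Cpa3 per Mcpt8 was at 0.560 and 0.876, and Fcer1a per Mcpt8 at 0.112 and 0.394. In bulk RNA, fewer cells of a type and less RNA per cell cannot be told apart. By the plain ratio of RPKM values 4 of the 10 genes were at least 2-fold higher in NOD.L7, against 0.942% of all 11141 genes, and 1 was at least 2-fold lower, against 0.718%. Of the 10 genes 7 were higher in any amount and 3 lower, against 56.2% and 43.8% of all 11141 genes. The genes were chosen with these values known, so the counts describe them and support nothing further.

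The genes most like Hdc were the 5 nearest to it in the plane of log2(RPKM + 1) over the 2 libraries. They were Clec4d, a myeloid lectin receptor, at 5.88 and 20.3 (distance 0.39), Cd14, the lipopolysaccharide co-receptor, at 7.64 and 29.1 (0.50), and Lrg1, a glycoprotein of neutrophil granules, at 4.84 and 18.5 (0.50). Ifitm1, an interferon-inducible membrane protein, was at 6.81 and 17.8 (0.64), and Siglece, an inhibitory receptor of myeloid cells, at 8.49 and 19.2 (0.76). With 2 libraries this likeness says only that level and ratio were close. None of the 5 is on the lists of basophil, mast cell or eosinophil genes. That follows from the ratios, since all 5 passed the size rule and Hdc alone did on those lists. Clec4d is on the neutrophil list and Cd14 on that of monocytes and macrophages, lists also chosen with earlier results known.

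**Figure D5:**
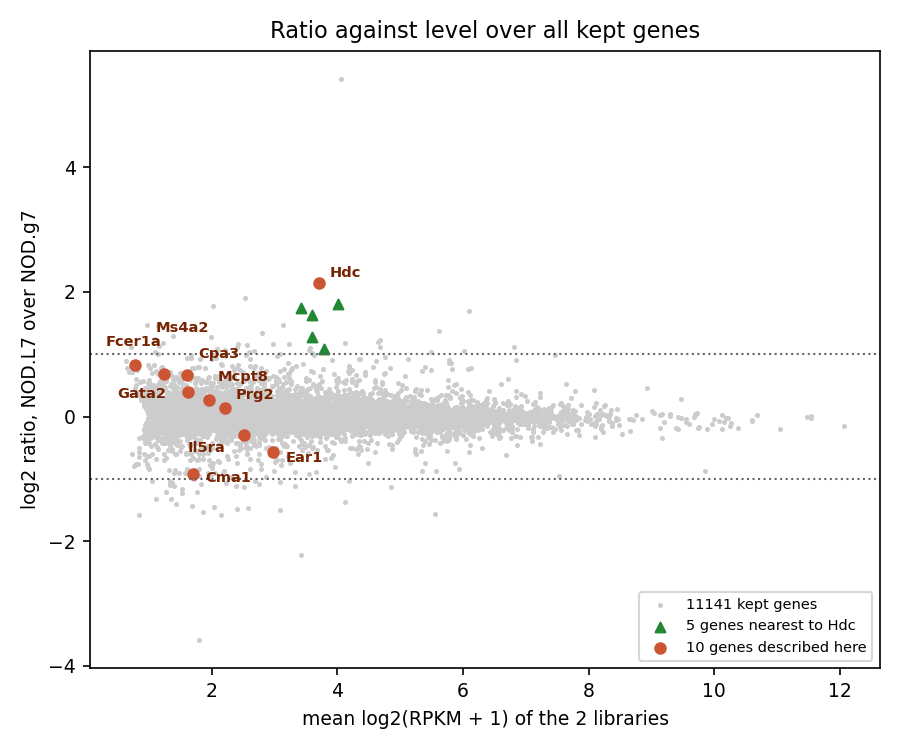
Log2 ratio of NOD.L7 over NOD.g7 against the mean log2(RPKM + 1) for 11141 genes (grey), the 10 genes described here (orange, named) and the 5 genes nearest to Hdc (green triangles), with dotted lines at the size rule. Hdc sits at 2.14 beside the green triangles, and the other 9 genes lie between -0.92 and 0.83.

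Most listed markers of other myeloid cells were higher in the same library as Hdc. Of 17 neutrophil markers 13 were higher in NOD.L7 and 5 passed the size rule, with a summed RPKM of 938 in NOD.g7 against 1275 in NOD.L7 and none at 0. All 18 monocyte and macrophage markers were higher, 3 past the rule, with a sum of 1033 and 1304 and none at 0. The shares over all 11141 genes were 56.2% higher and 43.8% lower, with 0.386% past the rule as higher. The sums differed 1.36-fold and 1.26-fold, and the median log2 ratios were 0.27 and 0.61. The monocyte and macrophage sum rested largely on the lysozyme gene Lyz2, at 618 and 636, and without it was 414 and 668, or 1.61-fold. The neutrophil list without its most abundant gene, S100a9, was 1.35-fold higher, and it held the decoy interleukin-1 receptor gene Il1r2, at 1.19 and 6.51, a fold of 5.46. Neutrophil granule genes went in both directions. Ngp was close, at 68.8 and 70.2. Lcn2 was 1.21-fold higher in NOD.L7 (counting interval 1.15 to 1.28), Mmp8 1.64-fold (1.49 to 1.82) and Mmp9 1.15-fold (1.09 to 1.22). Prtn3 was 1.15-fold higher, with a wide interval of 0.801 to 1.63. The 4 neutrophil markers that were lower in NOD.L7 were also granule genes. They were Camp (39.1 and 34.5), Ltf (29.0 and 28.4), Mpo (3.07 and 2.34) and Elane (1.64 and 1.20). The counting interval of the fold was 0.935 to 1.02 for Ltf and 0.516 to 1.02 for Elane, which leaves their direction open. Megakaryocyte markers, which share Itga2b with basophils, had sums of 16.2 and 21.6 with 6 of 9 genes higher and 2 lower. With no filter, 42.2% of all 22216 rows were higher and 34.6% lower. NK and cytotoxic markers had sums of 230 and 132, and 8 of 9 were lower. The part of these cells in the values of Hdc and the other genes was not tested.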

How the data were processed

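The authors deposited 1 table of RPKM values, with a symbol and gene coordinates and 1 column per library. Per the submitters' processing notes, the tools included CASAVA 1.8.2 and SAMtools 0.1.18 and the build was mm9, and the sources used here do not give the gene models, strandedness or handling of multiply mapping reads. RNA was extracted with an RNeasy kit and libraries made with a TruSeq kit, per the labels' protocols.

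The 10 genes, the 15 gene lists, the size rule and the alternatives were chosen with earlier results of these data known. With 1 library per group no test was possible. Log2 ratios used a pseudocount of 1, and genes reaching an RPKM of 1 in either library were kept. Genes named outside the 10 were list genes past the size rule or with the largest ratios, genes next to Hdc, Cma1, Mcpt8 and Prg2, the 5 genes nearest to Hdc, and genes near or at 0. Some list genes were added for their role, such as Lyn, Fyn, Fcer1g, Ngp, Hnmt and Prss34, after their values were seen. Of 191 list symbols 185 matched, 5 through RefSeq synonyms (GRCm38.p6).

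Depth came from low values of single-exon genes under 2500 bases, whose RPKM times length was within 0.15 of a whole number of bases in 100% of 103 and 115 values. Fragments were approximated with 200 bases each and the GENCODE M21 transcript whose genomic span was nearest to that in the table. Fold intervals are exact binomial (Clopper-Pearson) and level intervals exact Poisson, at 95%. These choices were made after the data were seen. Calculations used Python 3.11.15, pandas 2.3.3, NumPy 2.4.6 and SciPy 1.17.1, and were tested on simulated data.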

Additional observations from a re-analysis of the deposited data

How the results depend on the processing

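No paired analysis was possible because there was only 1 library per genotype, and for the same reason no replicate could be left out. The number of the 10 genes past the size rule was 4 with a pseudocount of 0.1 (Hdc, Fcer1a, Ms4a2 and Cma1) and 3 with 0.5 (Hdc, Fcer1a and Cma1), against 1 with a pseudocount of 1, since a smaller pseudocount shrinks low genes less by construction. All genes past the rule numbered 166 (91 higher, 75 lower in NOD.L7) with 0.1, 124 (67 and 57) with 0.5, and 52, with 19 lower, at a filter of RPKM 5, against 79 (43 and 36). The log2 ratio of Hdc was 2.32 with a pseudocount of 0.1. A filter of RPKM 5 left 3 of the 10 genes, of which 1, Hdc, was higher. Median centring and a TMM factor on the RPKM values moved log2 ratios by 0.02 and left Hdc as the 1 gene of the 10 past the rule. Of 36 values of the other 9 genes under these settings 1, Fcer1a with a pseudocount of 0.1, moved by more than its counting interval. List medians and counts have no such interval, and by a separate criterion 39 of 267 list values were marked as moved. Without the filter, the median log2 ratio of the basophil list was 0.29 against 0.39, that of the mast cell list 0.09 against 0.42, and that of the eosinophil list -0.01 against 0.14. Sums without the most abundant gene of a list were added after the data were seen. Depth limits Fcer1a most, at about 13 fragments in NOD.g7.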

Other observations

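These genes were picked out after their values were seen and are given as values. Siglec5, a sialic acid-binding lectin receptor on the eosinophil list, was at an RPKM of 0.392 in NOD.g7 against 0.999 in NOD.L7, a fold of 2.55 (counting interval 1.81 to 3.57), just under the filter of RPKM 1. Ptgs2, the inducible cyclooxygenase, was at 0.0721 and 0.427, a fold of 5.92 (counting interval 3.37 to 10.7) from low values. Mcpt-ps1, a pseudogene row beside Cma1, was at 0.151 and 0.0209, lower in NOD.L7 like Cma1. Cysltr2, a receptor for cysteinyl leukotrienes, was lower at 1.29 and 0.798.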
